A study of Mus musculus with 8 samples.

Results

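The genes described here, with exceptions given below, encode proteins of the cytosolic ribosome. They were taken from the array's annotation as all symbols that begin with Rpl or Rps and a number, together with Rplp0, Rplp1, Rplp2 and Rpsa and without the S6 kinases, where a probe was detected (detection p under 0.01) on 2 or more of the 8 arrays. The symbols matched 83 probes of 64 genes, and 67 probes of 56 genes passed, out of 25697 probes on the array and 11047 that passed the same detection rule. Of the 67 probes, 37 belong to 30 genes with Rpl symbols, counted with the large subunit. The 30 probes of 26 genes with Rps symbols are counted with the small subunit, including Rps19bp1 and Rps4y2, described below.

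Each array held RNA of CD4 T cells sorted from mouse mesenteric lymph nodes, 1 array for each combination of genotype, sorted population and state. The genotypes were Mir-21-/- (knockout, KO) and wild-type littermates (WT), and the populations were CD4+CD25High and CD4+CD45High. Cells were either resting or stimulated for 30 min with anti-CD3 and anti-CD28 antibodies. These engage the T cell receptor complex and the costimulatory receptor CD28. The sources used here give neither age, nor the number of mice behind a sort, nor the CD45 isoform. Since every combination has a single array, each comparison rests on 4 pairs of matched arrays, and its p-values measure how steady a difference was over sorted populations, states or genotypes and not over mice.

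A ribosome is built from a small subunit, which reads the messenger RNA, and a large subunit, which joins amino acids. Its proteins are made in nearly equal numbers, their genes are among the most highly transcribed of a growing cell, and their mRNAs mostly begin with a run of pyrimidines, the terminal oligopyrimidine tract, through which the mTOR kinase controls their translation. A resting T cell makes little protein, and antigen receptor signals switch it to growth, with ribosome production rising over hours.

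The microRNA removed in the knockout, and the start regions of the ribosomal protein genes on which the results below turn, are shown for reference. The mature miR-21 sequence (RefSeq, GRCm38.p6, chr11:86584120-86584141, minus strand) is given with its seed, bases 2 to 8, in capitals.
mmu-miR-21a-5p: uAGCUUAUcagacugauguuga
The start regions run from 40 bases before to 20 bases after the RefSeq start of transcription, on the strand of the gene. Capitals mark CTTTC, a pyrimidine run of the kind found at such starts, where it lies within 20 bases of the start, and CCGGAAG, a core bound by ETS family factors, anywhere in the stretch. The genes shown first had a probe that passed a test, and Rps27l and Rpl22 have a further listed start that is not shown.
Rps27l (chr9:66946046-66946105, plus strand, start at 66946086): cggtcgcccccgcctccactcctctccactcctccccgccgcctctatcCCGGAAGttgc
Rpl27a (chr7:109519155-109519214, plus strand): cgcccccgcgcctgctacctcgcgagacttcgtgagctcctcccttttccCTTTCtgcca
Rpl38 (chr11:114668540-114668599, plus strand): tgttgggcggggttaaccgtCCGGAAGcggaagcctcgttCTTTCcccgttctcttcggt
Rpl31 (chr1:39367811-39367870, plus strand): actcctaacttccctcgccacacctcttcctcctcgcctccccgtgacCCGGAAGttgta
Rpl22 (chr4:152325686-152325745, plus strand, start at 152325726): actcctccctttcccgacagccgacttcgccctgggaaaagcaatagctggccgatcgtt
Rps3 (chr7:99483690-99483749, minus strand): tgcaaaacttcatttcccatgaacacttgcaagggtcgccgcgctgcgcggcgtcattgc
The genes shown next were far below their usual level on a single array.
Rpl18 (chr7:45718031-45718090, plus strand): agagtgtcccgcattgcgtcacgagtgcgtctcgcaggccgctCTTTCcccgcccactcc
Rpl7a (chr2:26910767-26910826, plus strand): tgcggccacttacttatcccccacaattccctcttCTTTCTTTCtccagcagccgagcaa
Rps2 (chr17:24720023-24720082, plus strand): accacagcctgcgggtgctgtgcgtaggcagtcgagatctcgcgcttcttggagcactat

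Of the 56 genes, 45 have a start region in the RefSeq table, which spans 250 bases before to 50 bases after the start. CTTTC on the sense strand within 20 bases of the start was found in 12 of the 45 (26.7%), against 6.44% of 27025 genes, and on the antisense strand in 4.44% against 5.67%. CCGGAAG on either strand anywhere in the 300 bases was found in 18 of 45 (40%), against 9.93% of all genes. AAGATGGC, the core of the YY1 motif, was found on either strand in 4 of 45 (8.89%), against 3.19%. These are matches of letters and no measurement of binding.

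Many of the ribosomal protein probes were among the brightest on the arrays. The signal, a mean intensity over beads on a linear scale, also depends on how well a probe binds, so it does not rank genes by mRNA amount. A median signal of at least 10000 over the 8 arrays was reached by 31 of the 67 probes (46.3%), against 0.462% of all probes tested, and these 31 made up 60.8% of the 51 probes that bright. On each array 34 to 38 of the 100 brightest probes were ribosomal protein probes. Rplp1, an acidic protein of the stalk on the large subunit, had the brightest probe on all 8 arrays, and quantile normalization therefore set it to the same log2 level of 14.56 on each. Its fixed level is a property of the method and not a measurement of constancy. Rpl41, the smallest protein of the large subunit, spanned only 0.03 log2 over the arrays under the same normalization, and Rpl39, a short protein at the exit tunnel, spanned 0.19.

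Over all members, median signals ran from 102.8 to 24230. The range of a probe over the 8 arrays had a median of 0.49 log2, against 0.94 for all probes tested, and 12 members had a range of 1 or more, where 45.1% of all probes tested did. Members with ranges above 1.5 were Rpl7a (3.39), Rpl18 (3.13), Rps2 (2.31), the dimmer probe of Rps3 (2.13), the dimmer probe of Rpl29 (1.83), Rps27l (1.56) and Rps19bp1 (1.53). The median bead standard error of the members was 0.04 to 0.05 log2 per array over a median of 37 to 41 beads, which covers the beads of an array and not labelling, hybridisation or sample.

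Several members of the symbol rule are not parts of the standard ribosome. Rps19bp1 encodes a protein that binds Rps19, and Rpl7l1, Rpl22l1 and Rps27l are paralogs of Rpl7, Rpl22 and Rps27. Rps4y2 is a transcribed pseudogene, Rps4l, in the RefSeq gene table. Among the 67 probes, 63 were detected on all 8 arrays. The others were Rpl22l1 and a probe of Rpl7l1 (ILMN_2661407), each on 7 arrays, a probe of Rps19 (ILMN_2754355) on 5, and Rps4y2 on 2, both of them wild-type CD25High arrays, with levels of 5.13 (resting) and 4.82 (stimulated). Rps4y2 thus has no measured level in knockout or in CD45High cells, and no fold is given for it. Just outside the detection rule were probes of Rpsa (ILMN_2607253) and Rps27a (ILMN_3122437), detected on 1 array each. The other 14 probes that did not pass were detected on 0 arrays, and the 16 together had signals of 87.9 to 115.4. Through them 8 genes have no passing probe: Rpl3l, Rpl6, Rpl14, Rpl17, Rpl39l, Rplp2, Rps23 and Rpsa. Rps27, Rpl5, Rpl7, Rpl10, Rpl11, Rpl26, Rpl32 and Rps18 were not analysed here.

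The sorts and the arrays were looked at through a few other genes. In CD25High cells Foxp3, the factor that defines regulatory T cells, stood at 11.10 to 11.81 log2, against 5.47 to 6.25 in CD45High cells (ILMN_2635132). A further Foxp3 probe, ILMN_1225330, stood at 9.16 to 9.42 on 3 of the CD25High arrays and at 5.78 on the knockout stimulated one. All 6 CD4 T cell markers with a probe were detected on every array. The summed level of the stimulation markers Egr1, Fos, Nr4a1 and Crem was 11.79 to 12.19 in resting and 11.71 to 12.19 in stimulated cells. Egr1 (ILMN_2662926) stood at 11.14 to 11.75 in resting and 11.26 to 11.70 in stimulated cells, and Nr4a1 was detected on 0 arrays. Crem (ILMN_1242622) stood at 4.88 to 6.09 in resting and 7.98 to 9.48 in stimulated cells. Its probes ILMN_1216758 and ILMN_2747264 were detected on 0 arrays. Mir21 was not measured, and Tmem49, whose current symbol is Vmp1 and which neighbours Mir21, was detected with ILMN_2861787 on all 4 knockout arrays and on 0 of the 4 wild-type ones. Its other probes differed, and ILMN_2591777 and ILMN_2591781 were detected on 3 wild-type arrays each and on 0 knockout arrays, so the direction of this check depends on the probe. The knockout CD25High stimulated array stood apart over all probes: across probes it correlated with the rest at a median of 0.888, where the other 7 had 0.938 to 0.965, and 9208 probes were detected on it against 9543 to 10477.

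The ribosomal protein probes were spread more widely on that array too. Each member's log2 level was set against its own median over the 8 arrays. The median of these deviations lay between -0.07 and 0.06 on every array. Quantile normalization holds the levels of the brightest probes nearly fixed, so this median says little about the amount of ribosomal protein mRNA. The interquartile range of the deviations was 0.31 on the knockout CD25High stimulated array and 0.12 to 0.21 on the other 7, where all probes tested had 0.75 against 0.30 to 0.54. Within 0.25 log2 of their own median were 61.2% of members on that array and 79.1% to 91.0% on the others. Across members, its levels correlated with those of the rest at a median of 0.970, where the other 7 arrays had 0.994 to 0.997.

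On the knockout CD25High stimulated array 6 members lay more than 1 log2 below their median, and no member did so on any other array. They were 8.96% of the members, near the 9.98% of all probes tested. Among 330 other probes with a signal of at least 2000, 18 (5.45%) lay that low on the same array, and 20 (6.06%) did on the wild-type CD25High stimulated array. Low values of bright probes thus occurred on both stimulated CD25High arrays, and on the wild-type one 0 ribosomal protein probes were among them.

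Rpl18, a protein of the large subunit, had a deviation of -2.998 there, with a signal of 2168 against 11519 to 15971 on the other arrays. Rpl7a, a large-subunit protein that binds ribosomal RNA, had a deviation of -2.83, with a signal of 320.6 against 1111 to 2271. Rps2, a protein near the entry channel for messenger RNA, had a deviation of -2.05, with 3917 against 11609 to 15512. In each of the 3, the low array lay outside the range of the other 7. A probe of Rpl29 (ILMN_2730005) had a deviation of -1.69, a probe of Rps3 (ILMN_2637639) one of -1.55 and Rpl27 one of -1.12. Their bead standard errors on that array were 0.04 to 0.08 log2 over 29 to 47 beads. Above their medians on the same array were Rps19bp1 (1.08), Rpl22l1 (0.69), Rps27l (0.56), Rps15a (0.51), Rplp0 (0.43) and Rpl7l1 ILMN_2661407 (0.42), of which only Rps19bp1 lay more than 1 away. With 1 array for the combination there is no test of these values, and whether they belong to the cells or to that array cannot be told apart. Counted over all members, 18 had their lowest level on it (26.9%, against 23.5% of all probes tested) and 14 their highest (20.9%, against 28.7%).

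**Figure D1:**
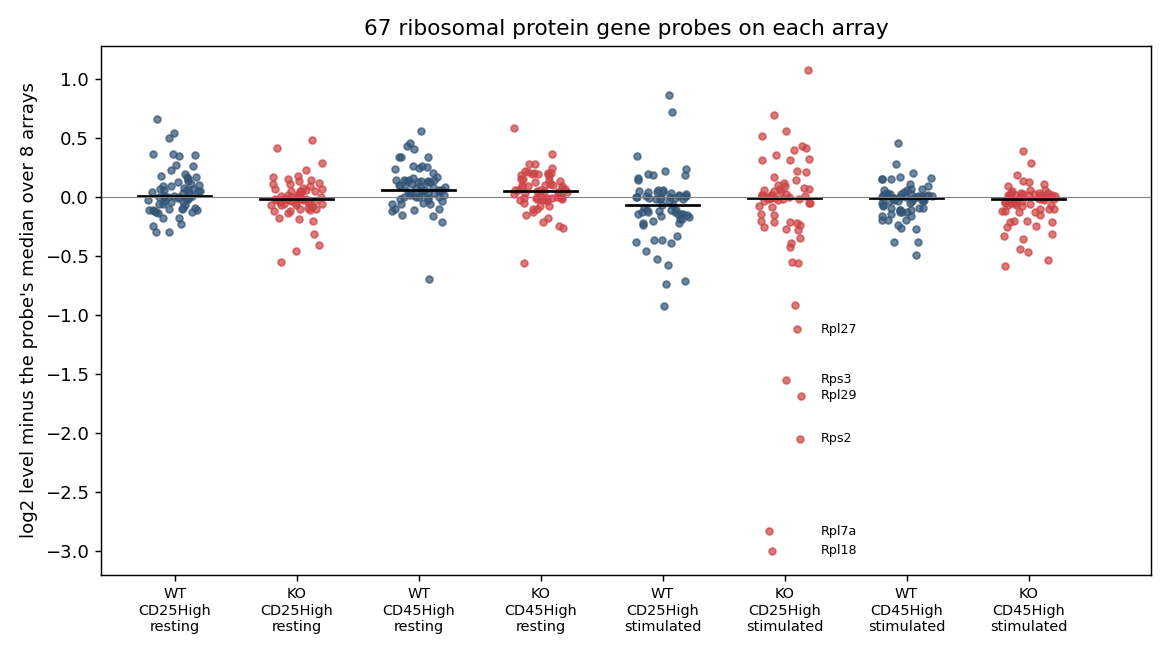
Each point is 1 of the 67 ribosomal protein probes, drawn as its log2 level minus its own median over the 8 arrays, for each array (blue, wild type, and red, knockout), with a black line at the median of the members. The medians stay between -0.07 and 0.06, and the 6 named probes below -1 all lie on the knockout CD25High stimulated array.

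The members' share of the summed raw signal of each array was 7.18% to 9.05%. That sum ran over all 25697 probes, detected or not, with no background subtracted, so the share also depends on the other probes and on background. In resting cells it was 8.56% (wild-type CD25High), 7.92% (knockout CD25High), 9.05% (wild-type CD45High) and 8.76% (knockout CD45High). In stimulated cells it was 7.91%, 7.18%, 8.33% and 8.30% in the same order. It was lower in the stimulated array of all 4 pairs, and the groups overlap. In bulk RNA, less of a transcript per cell and fewer cells that carry it cannot be told apart.

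Stimulation for 30 min changed few ribosomal protein probes, and the single rise was that of Rps27l. With limma, 5 of 67 members passed at an adjusted p under 0.05 (7.46%), against 16% of all probes tested. Of these, 1 member rose (1.49% of members, against 7.93% of all probes) and 4 fell (5.97%, against 8.1%). Rps27l rose 1.76-fold, and Rpl22, Rpl27a and single probes of Rps3 and Rpl38 fell 1.39-fold to 1.88-fold.

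Rps27l encodes a close paralog of the small-subunit protein Rps27 and is known as a target of p53. Its log2 levels in resting cells were 10.95 (wild-type CD25High), 11.07 (knockout CD25High), 10.43 (wild-type CD45High) and 10.57 (knockout CD45High). In stimulated cells they were 11.99, 11.69, 11.40 and 11.19 in the same order. All 4 stimulated arrays were above all 4 resting arrays. The mean difference was 0.81 (SE 0.14, SD 0.22 over 4 pairs, adjusted p = 0.0159 in limma). The pairs gave 1.04 and 0.97 in wild-type and 0.62 and 0.62 in knockout cells, CD25High first. The difference between genotypes in this response was -0.39, knockout minus wild type, and did not pass (unadjusted p = 0.13, adjusted p = 0.863 in limma). Without the wild-type CD25High, wild-type CD45High or knockout CD45High pair the adjusted p of the rise was 0.0977, 0.0599 or 0.0677.

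Rpl22, a large-subunit protein needed in mice for the development of alpha-beta T cells, showed the largest fall among the calls. Its levels were 9.42, 9.36, 9.14 and 9.16 in resting cells and 8.31, 7.97, 8.62 and 8.55 in stimulated cells, in the order used above. The groups do not overlap, and the mean difference was -0.91 (SE 0.18, SD 0.42, adjusted p = 0.0240 in limma). The CD25High pairs gave -1.11 and -1.40 and the CD45High pairs -0.52 and -0.60, wild type first. The difference between populations in this response, CD25High minus CD45High, was -0.69 and did not pass (unadjusted p = 0.0310, adjusted p = 0.494). Rpl22l1, its paralog, which Rpl22 represses in mice, had the levels 5.15, 5.61, 5.57 and 5.32 in resting and 4.70, 6.13, 5.21 and 5.73 in stimulated cells, with no common direction over the pairs. The Rpl22 call was lost when probes were tested without the detection filter (adjusted p = 0.0628), and without the wild-type CD25High or the knockout CD45High pair (adjusted p = 0.130 and 0.0753).

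Rpl27a, a large-subunit protein, had the steadiest fall. Its levels were 9.19, 9.26, 9.28 and 9.01 in resting cells and 8.46, 8.70, 8.69 and 8.39 in stimulated cells. All stimulated arrays were below all resting arrays, and the pairs lay between -0.73 and -0.57 (mean -0.63, SE 0.11, SD 0.07, adjusted p = 0.0201 in limma). Without any pair other than knockout CD25High its adjusted p was 0.0691 to 0.110, on nearly the same difference (-0.64 to -0.59).

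The remaining calls were on the dimmer probes of genes whose brighter probe had a difference near 0. The probe ILMN_2637639 of Rps3, a small-subunit protein at the entry of the messenger RNA, had 11.72, 10.91, 11.47 and 11.80 in resting and 11.13, 9.67, 11.16 and 11.27 in stimulated cells. The groups overlap through the resting knockout CD25High array, and the mean difference was -0.66 (SE 0.18, SD 0.40, adjusted p = 0.0497 in limma). The brighter Rps3 probe, ILMN_2594103, had a difference of 0.00 (SE 0.12). The probe ILMN_2594971 of Rpl38, a large-subunit protein known in mouse embryos for its part in translating Hox mRNAs, had 8.28, 8.15, 8.16 and 7.97 in resting and 7.73, 7.87, 7.73 and 7.33 in stimulated cells. Its groups do not overlap (mean -0.47, SE 0.12, SD 0.15, adjusted p = 0.0478 in limma), while the brighter probe ILMN_3135931 had 0.05 (SE 0.12). The Rps3 call was lost without the detection filter (adjusted p = 0.110) and in an additive model without pairs (0.153), and the Rpl38 call with each array only centred on its median (0.0975). Leaving out any pair other than knockout CD25High ended both calls.

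**Figure D2:**
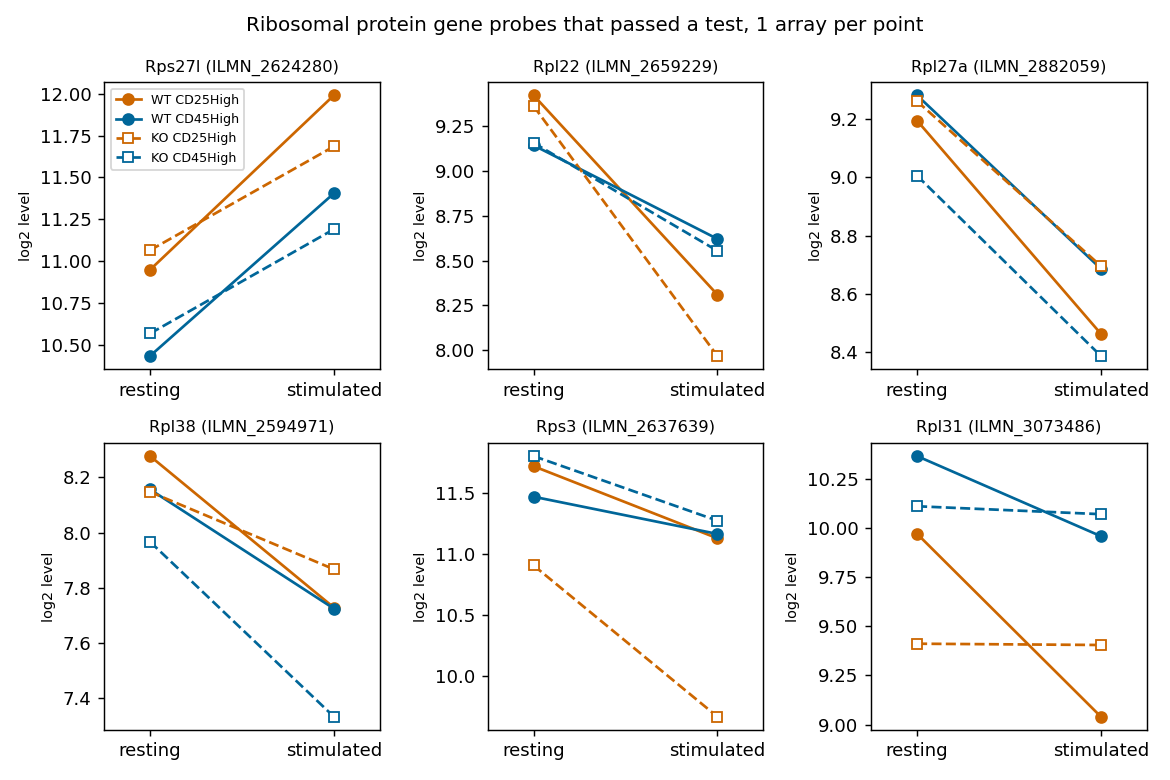
The log2 level on each array is drawn for the probes that passed a test, with 1 line per pair from resting to stimulated cells (orange, CD25High; blue, CD45High; filled circles with solid lines, wild type; open squares with dashed lines, knockout), each panel on its own scale. Rps27l rises in all 4 pairs by 0.62 to 1.04, the other 4 stimulation calls go down in every pair, and Rpl31 is lower in CD25High than in CD45High cells within each genotype and state.

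Values of the same sign in every pair that did not pass were found on both sides. Above 0 was Rps19bp1 (0.58, SE 0.25), with 1.53 in the knockout CD25High pair and 0.12 to 0.48 in the others. Its signals were near background, at 213.2 on the knockout CD25High stimulated array and 129.1 to 149.1 on the others. With no background correction its difference was 0.235. Also above 0 were Rpl7l1 ILMN_1249606 (0.39, SE 0.14, adjusted p = 0.112 in limma), the brightest Rpl23 probe (0.26), a dim Rps19 probe (0.10) and Rpl9 (0.07). The farthest below 0 was Rpl7a at -1.04 (SE 0.42), of which -2.82 came from the knockout CD25High pair and -0.55 to -0.37 from the others. Groups that did not overlap were found for 3 probes above (4.48%, against 11.5% of all probes tested), namely Rps27l, Rpl7l1 ILMN_1249606 and Rps19bp1. They were found for 6 below (8.96%, against 9.5%), namely Rpl22, Rpl27a, Rpl35 and single probes of Rpl38, Rps24 and Rps9. The same sign in all 4 pairs was seen in 24 of 67 members (35.8%, against 43.7% of all probes tested), with 6 above 0 (8.96%, against 21.9%) and 18 below (26.9%, against 21.8%).

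Leaving out the knockout CD25High stimulated array raised the count of calls from 5 to 11, with 2 higher and 9 lower of 67, while calls over all probes rose from 1771 to 2515. The 5 were kept, with Rps27l at 0.88 (adjusted p = 0.00656), and Rpl7l1 ILMN_1249606 was then also higher (0.50, adjusted p = 0.0356 in limma). Added below 0 were Rpl7a, Rpl13a and single probes of Rpl21, Rpl23 and Rps24. In the remaining pairs (wild-type CD25High, wild-type CD45High, knockout CD45High) the brightest Rpl23 probe, ILMN_2946482, rose by 0.48, 0.36 and 0.17. The brighter Rps24 probe, ILMN_3126986, had 0, -0.07 and 0.03 in the same order, and both Rpl21 probes were near background. The levels of Rpl13a, a protein that in human cells also silences inflammatory mRNAs, were 9.94, 9.71, 9.93 and 9.83 in resting and 9.61, 9.94, 9.38 and 9.33 in stimulated cells, so that only the knockout CD25High pair went up.

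The median of the members after stimulation lay a little below 0. It was -0.08 over the 4 pairs, against 0.00 for all probes tested, with 21 of 67 members above 0 (31.3%, against 49.8%). By pair it was -0.10 in wild-type and 0.02 in knockout CD25High cells, and -0.09 in both CD45High pairs. The probes with Rpl symbols had a median of -0.13 and those with Rps symbols -0.06. No test is attached to these medians. Under other scalings the median stayed below 0, from -0.15 with cyclic loess to -0.07 with no background correction.

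By median, the brightest members had the smallest differences. Among members with a median signal under 500 the median absolute stimulation difference was 0.25 (12 probes), from 500 to 2000 it was 0.35 (11 probes), from 2000 to 10000 it was 0.17 (13 probes), and from 10000 it was 0.08 (31 probes). Other probes had 0.28, 0.29, 0.29 and 0.10 in the same classes. All 5 called members had a signal under 10000, and 0 of the 31 brightest passed in limma, 0 also at an unadjusted p under 0.05, where 1 of the 20 other probes that bright passed. In the brightest class members and other probes thus had like values, while from 2000 to 10000 members had the smaller ones. Quantile normalization holds the levels of the brightest probes nearly fixed, members and others alike. Small differences and few calls in that class therefore say little about how steady these mRNAs were. The part of the scanner's upper range was not tested. The highest signal on any array was 25046.

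**Figure D3:**
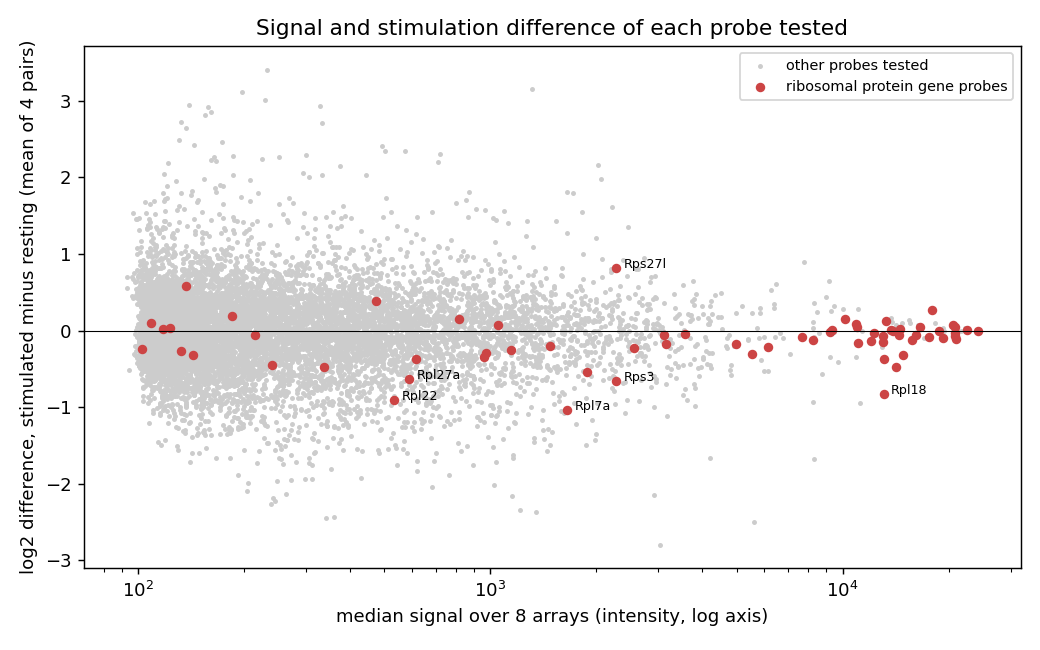
Each point is a probe tested, placed by its median signal over the 8 arrays (log axis) and its mean log2 difference between stimulated and resting cells, with ribosomal protein probes in red and other probes in grey. Most of the 31 members with signals of at least 10000 lie close to 0, with exceptions such as Rpl18 (-0.83), Rps2 (-0.47) and Rpl27 (-0.37). The members labelled in the figure have lower signals, apart from Rpl18.

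Markers of other cells were set beside the stimulation result. The summed level of CD8 T and NK cell markers (2 of 4 detected on every array, 2 on none) was 10.04 to 10.30 in resting and 9.86 to 9.95 in stimulated cells, while the sums of CD4 T, B, myeloid and erythroid cell markers overlapped between the states. The CD4 T sum was 14.48 to 14.60 in resting cells, against 13.51 (wild type) and 14.01 (knockout) in stimulated CD25High cells. The part of these markers in the result was not tested.

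Between the sorted populations, Rps27l was again the member that was higher, and a probe of Rpl31 was lower in CD25High cells. With limma 2 of 67 members passed (2.99%, against 8.29% of all probes tested), 1 in each direction (1.49% each, against 5.4% higher and 2.89% lower). Rps27l was 0.52 higher in CD25High cells (SE 0.11, SD 0.04, adjusted p = 0.0406 in limma), with 0.51 and 0.50 in resting and 0.59 and 0.49 in stimulated cells, wild type first. Its groups overlap over all arrays, and within a state both CD25High arrays were above both CD45High arrays.

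Rpl31, a large-subunit protein near the exit tunnel, had levels with ILMN_3073486 of 9.97, 9.41, 9.04 and 9.41 in CD25High cells (wild-type resting, knockout resting, wild-type stimulated, knockout stimulated). In CD45High cells they were 10.37, 10.11, 9.96 and 10.07. Each CD25High array was below its partner, by 0.40 to 0.92, and the groups overlap only in that the wild-type resting CD25High array, at 9.97, was above the wild-type stimulated CD45High array, at 9.96. The mean difference was -0.67 (SE 0.13, SD 0.21, adjusted p = 0.0324 in limma). The brighter probe of the gene, ILMN_3152328, had -0.14 (SE 0.14), and the mean over both did not pass (-0.41, adjusted p = 0.0914). Both calls were lost with arrays only centred on their medians (adjusted p = 0.0802 for Rps27l and 0.0655 for Rpl31) and without any pair other than knockout stimulated (0.0793 to 0.173).

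Of the other members with the same sign in every pair, Rpl7a (-0.77, with -2.63 in the knockout stimulated pair and -0.24 to -0.01 in the others) and Rpl29 ILMN_2730005 (-0.51) lay farthest from 0. Smaller values were those of Rps25 (-0.26), Rpl38 ILMN_2594971 (0.21), Rps16 (-0.18) and Rps26 (0.14), all small-subunit proteins but Rpl38. The count of members whose populations do not overlap was 0 in either direction, against 6.72% of all probes higher and 5.58% lower. An unadjusted p under 0.05 was reached by Rps27l and Rpl31 alone (2.99%, against 24.7%). The same sign in every pair was seen in 14 members (20.9%, against 35.8%), 5 above 0 (7.46%, against 16.7%) and 9 below (13.4%, against 19%). The median of the members was -0.06, against -0.03 for all probes, with 26 of 67 above 0 (38.8%, against 45.8%). B cell markers moved with the populations: the summed level of the 4 with a probe, of which 1 was detected on every array and none was undetected throughout, was 9.34 to 10.02 in CD25High and 7.71 to 8.09 in CD45High cells. Their part in the population differences was not tested.

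Between genotypes no ribosomal protein probe passed. With limma 0 of 67 members and 0 of 11047 probes (0%) were called, and 2 members had an unadjusted p under 0.05 (2.99%, against 9.8% of all probes), Rps27a and Rps4y2, of which Rps4y2 has no measured level in knockout cells and is not read as a difference. The lowest adjusted p was 0.493, for members as for all probes. The median of the members was 0.00, against 0.04 for all probes, with 33 of 67 above 0 (49.3%, against 57.5%).

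Rps27a, a fusion of ubiquitin and a small-subunit protein, had levels of 9.82, 9.31, 10.19 and 9.67 in wild-type cells (CD25High resting, CD45High resting, CD25High stimulated, CD45High stimulated). In knockout cells they were 9.52, 9.20, 9.20 and 9.42. The knockout array was lower in each pair, the groups overlap, and the mean difference was -0.41 (SE 0.17, SD 0.39, adjusted p = 0.493 in limma). Without the knockout CD25High stimulated array it was -0.22.

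The same sign in all pairs was seen in 16 members (23.9%, against 23.6%), 5 above 0 (7.46%, against 13.5%) and 11 below (16.4%, against 10.1%). The sizes of those farthest below 0 rested on that array. Rpl7a had -0.94 (SE 0.45), with -2.83 for stimulated CD25High cells and -0.39 to -0.22 for the other pairs, and -0.31 without the array. Rps2 had -0.68 and -0.17 without it, the dimmer Rpl29 probe -0.46 and -0.13, and Rpl27 -0.39 and -0.14. Above 0 in every pair were, among others, the brighter Rpl29 probe (0.23), Rps21 (0.13), Rps25 (0.13) and Rpl9 (0.08), of which Rpl9 turned below 0 with cyclic loess. The genotypes did not overlap for 0 members above (against 1.36% of all probes) and 2 below (2.99%, against 1.63%). These were Rps6, the small-subunit protein that S6 kinases phosphorylate, and Rps12. Rps6 had 13.79, 13.69, 13.72 and 13.72 in wild-type and 13.56, 13.60, 13.26 and 13.62 in knockout cells (mean -0.22, SE 0.12, adjusted p = 0.498 in limma). Rps12 had 14.40, 14.48, 14.38 and 14.36 in wild-type and 14.27, 14.32, 14.32 and 14.29 in knockout cells (mean -0.11, SE 0.10, adjusted p = 0.641).

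The stimulated CD25High pair was the only one with members more than 2-fold apart between genotypes. There 6 were lower in knockout (8.96%, against 10.2% of all probes) and 2 higher (2.99%, against 2.67%), and the SD over members was 0.74, against 0.15 to 0.22 in the other pairs. These values have no replicate.

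The responses were also compared between groups. No member passed for the genotype difference between populations, for the genotype difference between states or for the stimulation difference between populations (0% of all probes called in each). In each, 1 member had an unadjusted p under 0.05, against 398, 404 and 1047 of all probes (3.6%, 3.66% and 9.48%). These were Rps3 ILMN_2637639 (-1.36), Rpl31 ILMN_3073486 (0.65) and Rpl22 (-0.69), and the lowest adjusted p of a member was 0.824, 0.863 and 0.494 in limma.

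The members include 10 genes with more than 1 passing probe, 21 probes in all, and the probes of a gene often differed in direction. In 10 of 10 genes the dimmest probe had a wider range over the arrays than the brightest. In 8 of 10 the stimulation difference of the dimmest probe was lower than that of the brightest, the exceptions being Rpl21 and Rps19. Signs differed between the dimmest and the brightest probe in 4 genes for stimulation and in 5 for genotype. Probes of a gene are no replicates, and which of its transcripts each binds was not analysed here.

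The widest gap between deviations of probes of a gene was in Rpl29, a large-subunit protein that is not essential in mice. On the knockout CD25High stimulated array its probes were 2.01 apart, and at most 0.34 apart on the others. Its dimmer probe had levels there far below the 7 other arrays (9.18 against 10.64 to 11.01), while the brighter one, ILMN_2857570, had its highest level of all 8 (11.90). The genotype difference was accordingly -0.46 with one probe and 0.23 with the other. Rps3 had a gap of 1.49 on the same array and at most 0.51 on the others. For these 2 genes the low values on that array were seen with 1 of 2 probes only. Rpl18, Rpl7a, Rps2 and Rpl27 have a single passing probe, so that no second probe bears on theirs.

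In other genes the gap lay between resting and stimulated cells. Rpl23, a large-subunit protein that binds Mdm2, has 3 probes: the dimmest (ILMN_1238227) had a stimulation difference of -0.37 and the brightest (ILMN_2946482) 0.26, and neither passed. The dimmest stood at 9.08, 8.88, 9.36 and 9.28 in resting and 8.45, 8.90, 8.92 and 8.84 in stimulated cells. The brightest stood at 13.76, 14.01, 13.84 and 14.07 in resting and 14.24, 14.04, 14.21 and 14.24 in stimulated cells. The direction for Rpl23 thus depended on the probe. Rps24, a small-subunit protein mutated in some patients with Diamond-Blackfan anaemia, had -0.45 with the dimmer probe (SE 0.14, adjusted p = 0.0800 in limma) and 0.00 with the brighter. Rpl7l1 had 0.39 with ILMN_1249606 and 0.02 with ILMN_2661407, and the latter was detected on 7 arrays. The closest probes were those of Rps9, at most 0.20 apart on any array, Rps19 (0.29) and Rpl21 (0.34). But the dimmer Rps19 probe was near background, with detection on 5 arrays. The Rpl21 probes were near background too, with median signals of 132 and 143.55. Rps9 had -0.16 and -0.07 and Rpl21 -0.26 and -0.33 with stimulation.

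**Figure D4:**
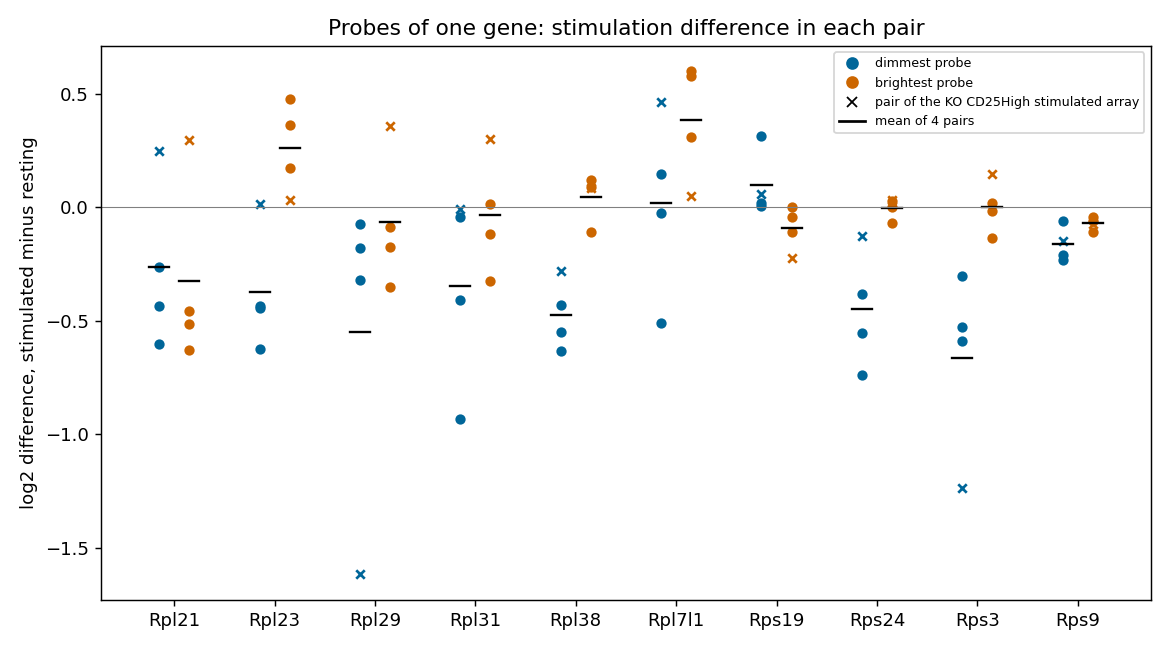
For the 10 genes with several passing probes, the log2 difference between stimulated and resting cells is drawn in each of the 4 pairs for the dimmest (blue) and the brightest probe (orange), with a cross for the knockout CD25High pair and a black line at the mean. By their means the dimmest probes lie below the brightest in 8 of 10 genes. By the largest gap within a pair, the probes of Rps9 lie closest together (0.19).

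Rplp0, the stalk protein often used as a reference gene, had levels of 6.99, 7.24, 7.26 and 7.19 in resting and 6.92, 7.53, 7.004 and 6.99 in stimulated cells. It was highest on the knockout CD25High stimulated array and spanned 0.61 log2. This probe was dim, with signals of 184.4 to 288.7, and a further Rplp0 probe, ILMN_1249815, was detected on 0 arrays. Rpl3, which helps form the peptidyl transferase centre, had 13.50, 13.83, 13.60 and 13.64 in resting and 13.40, 13.56, 13.53 and 13.53 in stimulated cells. It was lower after stimulation in each pair (mean -0.14, SE 0.12), without passing. Rps4x, a small-subunit protein, was -0.08 in CD25High against CD45High cells (SE 0.11), with the same sign in every pair.

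Other mRNAs of translation were counted for comparison. A first set held 27 probes of 16 genes, such as Eef1a1, Eef2, Tpt1 and Npm1. Their mRNAs encode no ribosomal protein of the list but also begin with an oligopyrimidine tract. With limma 0 of the 27 were called for stimulation, population or genotype, where all probes had 16%, 8.29% and 0% called. An unadjusted p under 0.05 was reached by 7 for stimulation (34.3% of all probes), 1 for population (24.7%) and 5 for genotype (9.8%). The 5 were the Eif4b probe and the dimmer probes of Naca and Pabpc1. The brightest probes of these genes had genotype differences of 0.09 (Naca, ILMN_2955104) and -0.07 (Pabpc1, ILMN_1259482). The medians were 0.02 for stimulation and -0.03 for population and for genotype. For genotype 12 of the 27 had the same sign in every pair (23.6% of all probes), among them the 3 probes of Eef2, an elongation factor, at -1.62 to -1.40. The stimulated CD25High cells gave these probes differences of -5.16 to -4.42, and the remaining 3 pairs -0.81 to -0.08. Of 88 probes of mitochondrial ribosomal proteins, which build the separate ribosome of that organelle, 6 rose and 6 fell with stimulation (median -0.08). Of all probes 7.93% rose and 8.1% fell. For population and for genotype 0 of the 88 were called. An unadjusted p under 0.05 was reached by 4 for population (24.7% of all probes, median of the 88 -0.02) and 4 for genotype (9.8%, median 0.04). The rises included Mrps6 (0.75, SE 0.16) and Mrpl12 (0.50, SE 0.13), and the falls Mrpl48 with ILMN_1216122 (-0.68, SE 0.12) and Mrpl18 (-0.59, SE 0.12).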

How the data were processed

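Per the file headers, the deposited non-normalized table gives the linear mean intensity of a probe's beads, the standard error of that mean, how many beads were read, and a detection p-value, on every array of an Illumina MouseRef-8 v2.0 beadchip. Detection p-values were made by the authors' scanner software from control probes, per the file headers. A second deposited table has 14533 probes on the log2 scale and differs from the values used here by at most 0.0626 log2. Per the submitters' processing notes limma was used, and no version, background correction or scanner is given in the sources used here. Per the labels' protocols, Trizol was used to extract total RNA, and the label was biotin.

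From the intensities, log2 levels were computed with neqc (normexp from detection p-values, offset 16, quantile normalization) in limma 3.58.1 under R 4.3.3. The 11047 probes detected at p under 0.01 on 2 or more arrays were fitted with lmFit and eBayes, with matched combinations as 4 blocks (3 residual degrees of freedom, and 2 for differences between responses). A call is a Benjamini-Hochberg adjusted p below 0.05, taken over the whole set. Folds are those of log2 levels. Pairs come from the labels and share no known animal. Precision is limited by the number of arrays. The fits were tested on simulated data.

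The members and lists were chosen with earlier results of these data known, and lists are described by counts and medians. Named probes are, per comparison, calls whose 4 pairs share a sign (at most 8 a direction), or, with fewer than 3, the 5 largest values of that kind, then a set of genes of known roles, the genes with the widest and closest probes, and the 6 probes farthest up and down on the array with the widest spread. Rpl35 and other members outside this rule, such as Rps12, were named after their values were seen. A few named values are not reported here. Start regions and miRNA come from RefSeq tables of GRCm38.p6. Symbols are those of the array, except where a current one is given. Alternatives covered background correction, normalization, filter, offset, blocks, array weights, each pair or array left out, and the mean over probes of a gene.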

Additional observations from a re-analysis of the deposited data

How the results depend on the processing

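No paired analysis by replicate number was possible because no combination was repeated and the labels carry no replicate numbers; matched combinations were the pairs. The 0 genotype calls held under all alternatives run, among them each pair left out. The 5 stimulation calls became 3 without the detection filter, 9 with array weights, 11 without the knockout CD25High stimulated array and 3 with probes averaged per gene, where all probes went from 1771 to 1162, 2564, 2515 and 1769. They ranged from 0 to 11 when 1 pair was left out: 0 without wild-type CD25High (0 of all probes) or knockout CD45High (80), 1 (Rpl22) without wild-type CD45High (740) and 11 without knockout CD25High (2515). Fewer pairs leave fewer degrees of freedom. The 2 population calls became 0 with median centring, 0 with arrays scaled without the members, 1 without the filter, 4 with array weights, 1 with probes averaged per gene, and 0 to 2 with 1 pair left out (2 without knockout stimulated), with 231 to 1928 of all probes in these settings. The 0 calls for differences between responses became 0 to 10 (genotype by population), 0 to 9 (genotype by stimulation) and 0 to 9 (stimulation by population) with 1 pair left out. The counts above 0 arose without the CD25High resting, CD45High stimulated and wild-type CD25High pairs, with 1772, 2003 and 2011 of all probes called, and an arm of the difference then rested on 1 pair.

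The median of the members moved with scaling: for genotype to -0.089 with cyclic loess (-0.034 to 0.011 with 1 pair left out), for stimulation to -0.146 with cyclic loess (-0.100 to -0.074), and for population to -0.103 with cyclic loess and -0.149 with median centring or scaling without the members (-0.050 to -0.017). Directions turned for values that had not passed: Rpl9 (-0.074) for genotype with cyclic loess, Rpl29 for genotype with the mean over its probes (-0.12), and Rpl9 for population with cyclic loess (-0.073), median centring (-0.141) and scaling without the members (-0.140). The cause was not tested. Over named probes and settings, 374 values kept direction and side of the threshold, 33 lost a call, 3 gained one and 5 turned. Most named values had not passed in the main fit, so most of the 374 had no call to lose. For genotype, leaving out the knockout CD25High stimulated array or its whole pair gave the same values, and both settings were counted. Signals near background limit Rps4y2, Rpl22l1, Rps19bp1, the probes of Rpl21 and the dim probes of Rpl7l1 and Rps19.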
